A study of Mus musculus with 4 samples.

Results

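Small nucleolar RNA (snoRNA) genes were examined in erythroblasts, the nucleated precursors of red blood cells, from mice with and without Parp2. Members were the probe sets whose platform annotation gave a single symbol beginning with Snora or Snord. This rule gave 56 probe sets for 51 genes among 23410 annotated probe sets: 23 probe sets for 20 box H/ACA genes (Snora) and 33 probe sets for 31 box C/D genes (Snord). A further 41 probe sets listed a snoRNA together with another symbol, 24 of them for Snord116 copies, and were not members. RNA came from Ter119+CD71+ sorted bone marrow cells of mice on a C57BL/6 background, labelled WT (2 arrays) or Parp-2-/- (2 arrays); how the allele was made is not analysed here. The labels gave no age, sex or treatment and named no separate animals, so the spread between arrays may be technical. Each genotype had 1 array whose title ended in 1 and 1 whose title ended in 2; the labels do not say what that number marks, nor the number that opens each title (1 and 2 for wild type, 3 and 4 for knockout). The arrays are called wild type 1, wild type 2, knockout 1 and knockout 2 after the closing number. The family was chosen by measured values of these arrays, the knockout-minus-wild-type differences, among whose lowest Snora20 and Snord53 stood. Genotype differences of the members are therefore given as a description, without a test of their own.

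snoRNAs are short nuclear RNAs that guide the chemical modification of ribosomal and small nuclear RNA by base pairing. Box C/D snoRNAs direct ribose methylation and are bound by fibrillarin (Fbl), Nop56, Nop58 and Snu13, whereas box H/ACA snoRNAs direct the conversion of uridine to pseudouridine and are bound by dyskerin (Dkc1), Nop10, Nhp2 and Gar1. A few members of either class act in cleavage of the ribosomal RNA precursor instead. Most mammalian snoRNAs lie in introns of other genes, often genes for ribosomal proteins or translation factors, and are trimmed from the excised intron, so that snoRNA and host messenger RNA come from 1 transcript but can differ in level. Red cell precursors make large amounts of ribosomes early and shut this production down as they mature.

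All 51 genes were found by gene ID in the RefSeq gene table of assembly GRCm38.p6. Of these, 47 lay within the span of exactly 1 other gene, 3 within the spans of 2, and Snord118 within none. The 47 lay in 37 distinct genes, and 37 of the 47 lay in a protein-coding gene, 21 of them in a gene for a ribosomal protein; the other 10 lay in long noncoding RNA genes such as Snhg3 and Snhg12. Since an intronic snoRNA is transcribed from the start of its host, RefSeq sequences around the start (40 bases before to 20 bases after it, sense strand, GRCm38.p6) are shown for hosts of members described below. They are Ipo7 at chr7:110018275-110018334 (plus strand), host of Snora23; Tcp1 at chr17:12916289-12916348 (plus strand), host of Snora20; Wdr43 at chr17:71616175-71616234 (plus strand), host of Snord53; Rack1 at chr11:48800320-48800379 (plus strand), host of Snord96a and Snord95; Rpl13a at chr7:45128726-45128785 (minus strand), host of Snord33 and Snord35a; and Ncl at chr1:86359436-86359495 (minus strand), host of Snora75 and Snord82. Capitals mark the letters CTTTC anywhere in the window. Such letters can be part of the pyrimidine-rich start that many genes of the translation machinery share. Their position relative to the start was not tested, so the marked letters need not belong to such a start.
Ipo7: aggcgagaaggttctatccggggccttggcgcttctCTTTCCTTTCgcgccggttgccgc
Tcp1: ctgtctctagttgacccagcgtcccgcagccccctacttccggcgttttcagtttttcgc
Wdr43: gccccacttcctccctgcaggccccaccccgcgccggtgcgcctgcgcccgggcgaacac
Rack1: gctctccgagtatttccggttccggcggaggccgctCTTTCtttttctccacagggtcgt
Rpl13a: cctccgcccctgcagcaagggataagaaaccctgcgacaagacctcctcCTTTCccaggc
Ncl: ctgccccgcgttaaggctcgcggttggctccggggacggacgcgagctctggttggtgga
CTTTC, read on both strands, was present in the 60-base window of at least 1 start for 10 of 29 hosts with a sequence (34.5%) and for 17.0% of 27025 genes. On the sense strand it was present for 9 of the 29 hosts (31.0%) and for 9.42% of all genes. Ipo7, Rack1 and Rpl13a carry it on the sense strand. Tcp1, Wdr43 and Ncl do not have these letters in the window.

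The values are normalised log2 expression values. Parp2 was at 8.24 (wild type 1), 7.65 (wild type 2), 7.11 (knockout 1) and 6.70 (knockout 2), the direction of the labels; which exons its probes cover is not analysed here. Erythroblast markers were high on all arrays: the transferrin receptor gene Tfrc lay between 10.35 and 11.43, and Slc4a1, the anion exchanger of red cells, between 11.50 and 13.01. Knockout 2 had the narrowest interquartile range of the arrays over annotated probe sets, 1.98 against 2.62 to 2.94. Of 18 measured neutrophil markers 18 were lower in the knockout (43.6% over all annotated probe sets), 15 without overlap (9.42% over all). Their summed linear levels were 41077 to 50617 in wild type and 22222 to 29078 in the knockout. B cell markers were lower for 10 of 12 measured, with sums of 1804 to 2296 against 870 to 980, while those of 14 erythroblast markers were 16115 to 35653 against 21177 to 31790. Monocyte and macrophage markers were lower for 10 of 13, with sums of 6011 to 6152 against 3402 to 3614. Mast cell, basophil and eosinophil markers were lower for 9 of 11, with sums of 1098 to 2232 against 680 to 711. T and NK cell markers were lower for 8 of 11, and megakaryocyte and platelet markers higher for 5 of 6. The part of these cell types in the snoRNA differences was not tested, and fewer cells of a type cannot be told apart from less RNA per cell.

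snoRNA values spread widely over the arrays, between arrays of the same genotype as well as between genotypes. The range over the 4 arrays had a median of 2.46 on the log2 scale for the 56 probe sets (0.30 for Snora41 to 6.13 for Snora23), against 0.79 for all annotated probe sets. A range of 2 or more, at least a 4-fold span, was found for 34 of the 56 (60.7%). These were 13 of 23 Snora and 21 of 33 Snord, while 7.01% of all annotated probe sets reached it. The range takes in the genotype difference that led to the choice of the family, so nothing is read from this share. The 2 wild type arrays differed by a median of 1.15 in size for the snoRNAs and 0.33 for all annotated probe sets, and the 2 knockout arrays by 1.28 and 0.53. Among the classes the median size between wild type arrays was 1.24 for Snora and 0.94 for Snord, and between knockout arrays 0.78 and 1.60. The 305 microRNA gene probe sets, another family of small RNA genes on these arrays, differed by 0.31 between wild type arrays and 0.48 between knockout arrays. The wide spread was not limited to dim probe sets. Among the 35 snoRNA probe sets at or above the median level of all annotated ones, the wild type arrays differed by a median of 1.24, against 0.50 for all brighter probe sets. The median within-genotype SD of a snoRNA probe set was 1.07, larger than the median size of its genotype difference (0.77). The same order held over all annotated probe sets (0.36 and 0.25), so it is not particular to snoRNAs. These shares and medians were not tested.

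**Figure D1:**
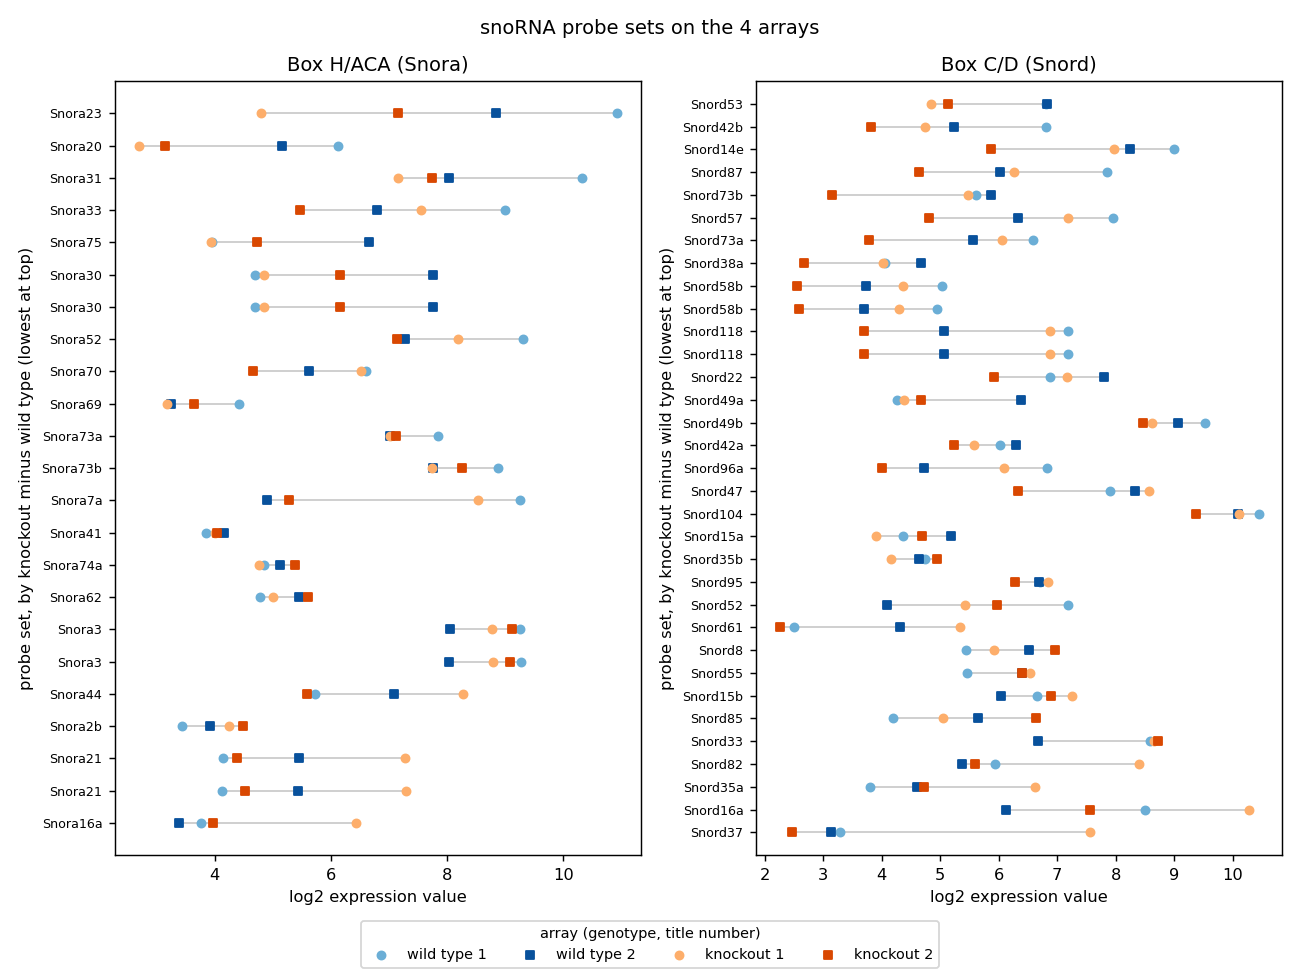
Log2 values (x axis) of the 23 Snora and 33 Snord probe sets on the 4 arrays, 1 row per probe set, ordered by knockout minus wild type with the lowest at the top; circles are arrays numbered 1, squares arrays numbered 2, blue wild type and orange knockout, and grey lines join the lowest and highest array. Few rows show the blue and orange points apart, and 34 of 56 rows span 2 or more log2 units.

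**Figure D2:**
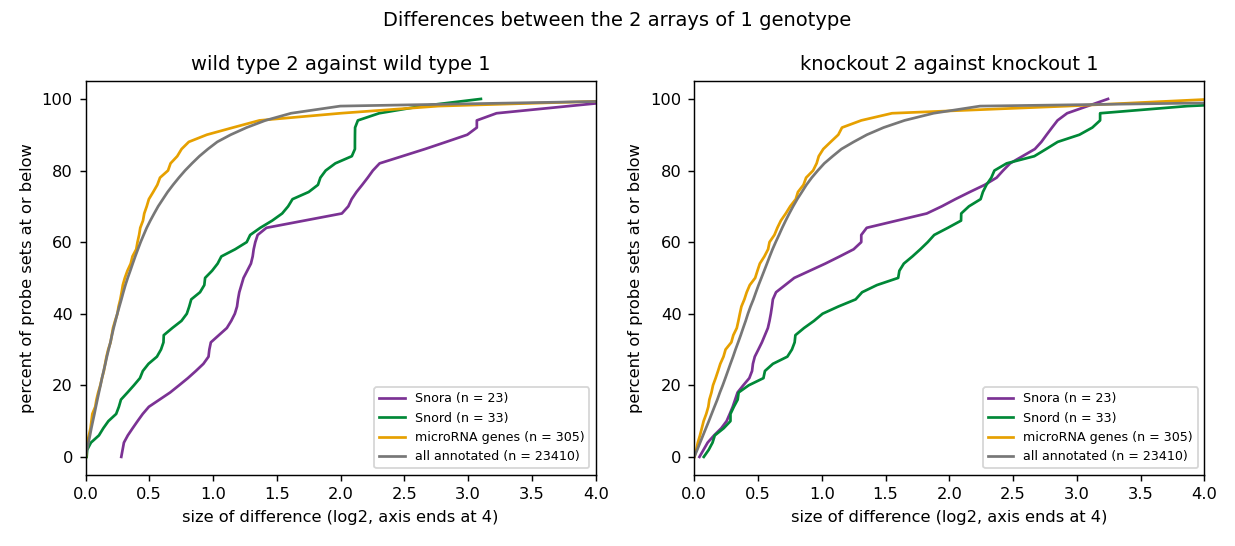
Cumulative percent of probe sets (y axis) at or below a given size of difference between the 2 arrays of 1 genotype (x axis, log2), for Snora, Snord, microRNA genes and all annotated probe sets. Both snoRNA curves lie to the right of the others at the median, and some of the curves cross among the widest differences. The medians were 1.24 (Snora) and 0.94 (Snord) between wild type arrays against 0.33 for all annotated probe sets.

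Of the 51 genes 5 had a pair of probe sets. The members of a pair read alike, with a gap of 0 on every array for Snora30 and Snord118, of at most 0.03 for Snora3, 0.07 for Snord58b and 0.13 for Snora21. Such pairs are 1 measurement of each gene for present purposes, and the 51 genes gave a median size of 1.02 between wild type arrays.

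Between genotypes, 35 of 56 snoRNA probe sets had lower and 21 higher values in the knockout, with a median difference of -0.50, where 10199 of 23410 annotated probe sets (43.6%) were lower and the median was +0.06. Of the members 12 differed by -1 or lower, 4 Snora and 8 Snord, and 8 by +1 or higher, 3 Snora and 5 Snord; for all annotated probe sets the shares were 2.87% and 0.56%. The genotypes did not overlap for 16 members: the knockout pair was the lower for 10 (17.9%, with 9.42% over all annotated probe sets) and the higher for 6 (10.7%, with 15.6% over all). With each array centred on its own median these counts were 10 and 1 (11.3% and 14.7% over all), and after repeated quantile normalisation 11 and 4 (10.7% and 15.6% over all). With Benjamini-Hochberg adjustment in limma, 0 of 23410 annotated probe sets (0%) passed a threshold of 0.05, and so 0 of the members. Unadjusted, 486 passed (2.08%), 5 of them members, and all 5 were lower (1.73% over all). Since this contrast led to the choice of the family, nothing is read from these shares.

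The widest genotype difference among box H/ACA members was that of Snora23, which lies in the nuclear import receptor gene Ipo7. It stood at 10.93 on wild type 1, 8.84 on wild type 2, 4.80 on knockout 1 and 7.15 on knockout 2, a difference of -3.91 ± 0.92 (SE, n = 2 per group). Both knockout arrays were low and the groups did not overlap, but the knockout arrays stood 2.35 apart. Snora20, in the chaperonin gene Tcp1, read 6.12, 5.16, 2.70 and 3.15 in the same order. Its difference was -2.72 ± 0.45, or 6.59-fold, and the knockout arrays lay apart from the wild type arrays and close to each other. Both knockout values were below the medians of their arrays (5.23 and 5.49), at dim levels where RMA compresses differences. Snora31, in the growth-related gene Tpt1, read 10.32, 8.03, 7.17 and 7.75. It differed by -1.72 ± 0.73, and wild type 1 alone stood high while wild type 2 lay 0.28 above knockout 2. Higher values without overlap were found for Snora16a and Snora2b. Snora16a, in the noncoding gene Snhg12, read 3.77, 3.38, 6.44 and 3.97, so that its +1.63 ± 0.76 came mostly from knockout 1. Snora2b, in the chromatin regulator gene Kansl2, read 3.44, 3.92, 4.24 and 4.49 and differed by +0.68 ± 0.38.

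Other H/ACA members overlapped between genotypes. Snora73a and Snora73b, copies of a snoRNA that acts in cleavage of the ribosomal RNA precursor, both lie in Snhg3. Snora73b read 8.88, 7.76, 7.74 and 8.26 and Snora73a 7.84, 7.01, 7.02 and 7.13, with differences of -0.32 ± 0.48 and -0.35 ± 0.42. In both, wild type 1 was the highest array and the genotypes overlapped. Snora3, in the ribosomal protein gene Rpl27a, had the highest mean level of the class and read 9.27, 8.03, 8.79 and 9.09 on 1 of its probe sets. Snora21, in Rpl23, read 4.15, 5.45, 7.27 and 4.39 and Snora44, in Snhg12, 5.73, 7.10, 8.27 and 5.58. In both of these, knockout 1 was the highest array and the within-number differences had opposite signs.

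Among box C/D members the lowest genotype difference was that of Snord53, which lies in Wdr43, a gene of the machinery that processes the small-subunit ribosomal RNA. Snord53 was at 6.81 on wild type 1 and 6.82 on wild type 2, against 4.85 on knockout 1 and 5.13 on knockout 2, a difference of -1.82 ± 0.36 or 3.54-fold. Its wild type arrays agreed to within 0.01, and the groups lay clearly apart. Snord42b, in Rpl23a, read 6.81, 5.23, 4.74 and 3.82 and differed by -1.74 ± 0.61. Snord42a, from the same host, read 6.02, 6.29, 5.58 and 5.24, a smaller difference of -0.74 ± 0.37. Snord14e is a copy of a snoRNA that both guides methylation and acts in precursor cleavage, and lies in the heat shock cognate gene Hspa8. It read 8.99, 8.25, 7.97 and 5.87, -1.70 ± 0.70. Knockout 2 was well below the other arrays, and knockout 1 lay just below wild type 2.

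Snord73b, in the ribosomal protein gene Rps3a1, read 5.62, 5.87, 5.48 and 3.14, and Snord38a read 4.06, 4.67, 4.02 and 2.68. For both, knockout 2 was low and knockout 1 lay within 0.14 of wild type 1. Snord49b read 9.53, 9.07, 8.63 and 8.46, a difference of -0.76 ± 0.37 at a high level. The highest mean level of the class was that of Snord104, at 10.44, 10.09, 10.11 and 9.37, where the genotypes overlapped. The 4 C/D members with higher knockout values and no overlap were Snord35a (+1.46), Snord33 (+1.06), Snord15b (+0.72) and Snord55 (+0.54), and none of these 4 kept separate groups when arrays were centred on their medians. Snord33 and Snord35a lie in Rpl13a, whose intronic snoRNAs have been linked to the response of cells to metabolic stress. Snord33 read 8.58, 6.67, 8.65 and 8.72, so that wild type 2 was the low array and the other 3 lay close together. Snord35a read 3.80, 4.61, 6.61 and 4.72, with knockout 1 alone high. The widest positive difference in mean, that of Snord37 in the translation elongation factor gene Eef2 (+1.79 ± 1.43), came from knockout 1 alone, at 7.55 against 3.30, 3.13 and 2.47 on wild type 1, wild type 2 and knockout 2.

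The classes were then compared within and across the title numbers. Across both numbers the median genotype difference was -0.32 for Snora and -0.72 for Snord, so that Snora lay 0.41 above Snord; by the mean over members the order was the other, -0.38 for Snora and -0.31 for Snord. Within number 1 the medians were -0.10 for Snora and -0.30 for Snord (0.20 apart), and within number 2 they were -0.14 and -1.04 (0.91 apart). By medians the classes thus lay further apart in number 2. The means over members did not show this. They were -0.32 for Snora and +0.10 for Snord within number 1, and -0.44 and -0.72 within number 2. With 1 probe set a gene, the medians across both numbers were -0.33 for Snora and -0.67 for Snord. Without knockout 2 the Snord median was -0.010 and that of Snora -0.12, which put Snora below Snord; without wild type 1 the medians were -0.27 and -0.042. For 25 of 33 Snord probe sets the genotype difference had the same sign within both numbers, 17 lower and 8 higher, and for 10 of 23 Snora, 7 lower and 3 higher. Over all annotated probe sets the sign was the same for 48.6%. Across the 56 members the differences within number 1 and within number 2 correlated at 0.14, a description over probe sets that share arrays, hosts and in 5 cases a gene. None of these class differences was tested.

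**Figure D3:**
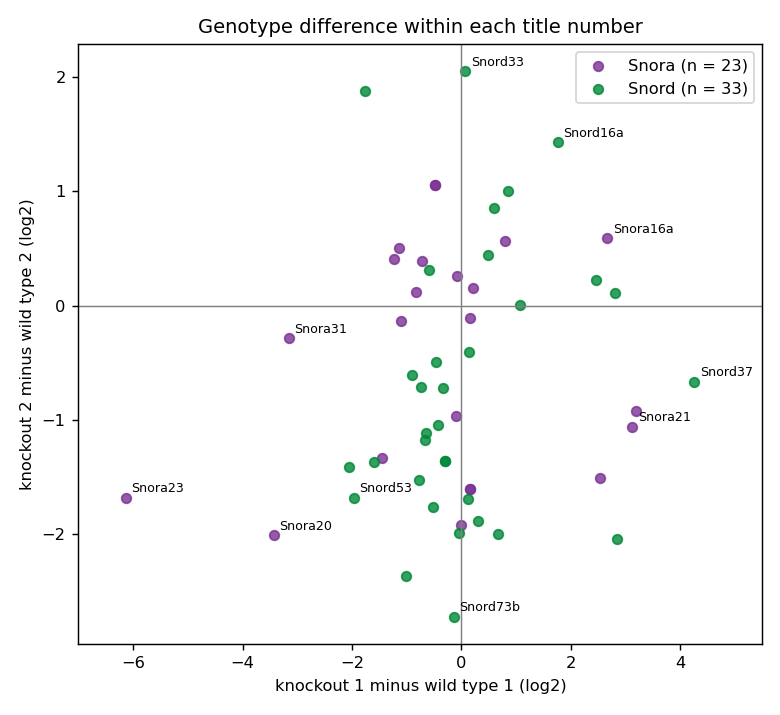
Knockout minus wild type (log2) within number 1 (x axis) and within number 2 (y axis) for each Snora (purple) and Snord (green) probe set. Points below and left of the zero lines are lower in both knockout arrays than in the wild type array of the same number: 7 of 23 Snora and 17 of 33 Snord.

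The genotype differences of host genes are set beside those of their snoRNAs as a description, since the snoRNAs were chosen by this contrast and the hosts were not; nothing is read from which of the pair is wider. Among the 47 snoRNAs within a single gene, 26 had a host with a probe set naming it alone, 22 hosts in all. The median size of the genotype difference was 1.14 for the 26 snoRNAs and 0.12 for the 22 hosts, whose differences ran from -0.45 to +0.37. The snoRNA had the wider difference in 25 of the 26 pairs; the other pair was Snora41 (+0.02) in Eef1b2 (-0.12). Signs were the same in 16 of 26 pairs, and in 9 of the 16 pairs whose host had a single probe set. Ipo7 differed by -0.05 ± 0.53 beside the -3.91 of Snora23, Tcp1 by -0.12 ± 0.46 beside the -2.72 of Snora20, and Tpt1 by +0.01 ± 0.38 beside the -1.72 of Snora31. Wdr43 differed by -0.43 ± 0.87 beside the -1.82 of Snord53. For the 9 hosts with several probe sets, mostly ribosomal protein genes, the brightest was used, and reads of processed copies of such genes cannot be told apart from the host.

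**Figure D4:**
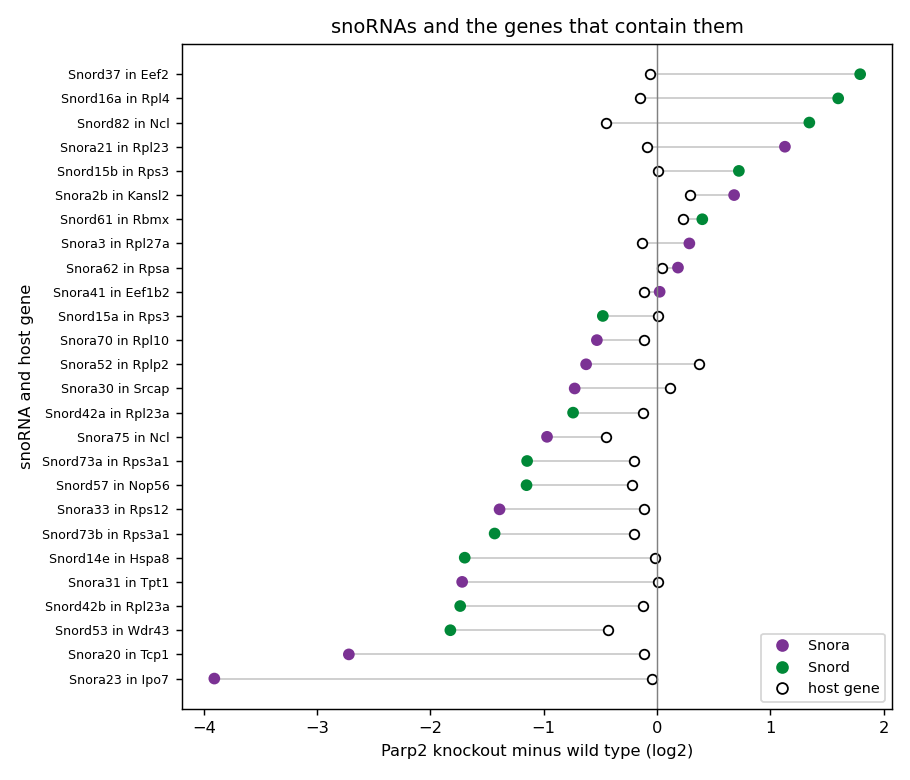
Knockout minus wild type (log2, x axis) for 26 snoRNAs (filled, purple Snora, green Snord) and the host gene containing each (open circles), ordered by the snoRNA. Hosts lie between -0.45 and +0.37, while the snoRNAs run from -3.91 to +1.79.

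snoRNAs of 1 host did not always go the same way. Of 10 hosts with 2 members, 7 had members with the same sign by genotype. Ncl, the gene for nucleolin, holds Snora75 and Snord82. Snora75 read 3.96, 6.65, 3.94 and 4.73 and Snord82 read 5.93, 5.37, 8.40 and 5.59, so that wild type 2 was the high array for the first and knockout 1 for the second. Ncl itself differed by -0.45 ± 0.58. Rps3 holds Snord15a and Snord15b, copies of 1 snoRNA, which differed by -0.48 ± 0.47 and +0.72 ± 0.40.

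The difference between title numbers was not used to choose the members and could be tested. In the limma comparison of number 2 with number 1 over both genotypes, 6 of 56 member probe sets passed a Benjamini-Hochberg threshold of 0.05, against 3.09% of all annotated probe sets; they stand for 4 genes. Lower in number 2 were Snora7a, Snord118 and Snord96a (4 probe sets, with 2.15% over all) and higher was Snora30 (2 probe sets, with 0.94% over all). Snora7a, in the ribosomal protein gene Rpl32, read 9.25 and 8.53 on wild type 1 and knockout 1 and 4.89 and 5.28 on wild type 2 and knockout 2. Its arrays numbered 2 fell by 3.80 on the log2 scale (SE 0.36; limma adjusted p = 0.00742), while the genotypes differed by -0.17 ± 1.52.

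Snord118, which acts in processing of the large-subunit ribosomal RNA and is a gene of its own, read 7.18 and 6.88 on the arrays numbered 1 and 5.07 and 3.70 on those numbered 2, with wild type given first. The difference was -2.65 ± 0.44 (limma adjusted p = 0.0233). Snord96a, in the ribosomal scaffold gene Rack1, read 6.83 and 6.10 against 4.72 and 4.00, -2.10 ± 0.39 (limma adjusted p = 0.0284). Its neighbour in the same host, Snord95, read 6.70 and 6.83 against 6.68 and 6.27 and did not pass. Snora30, in the chromatin remodeller gene Srcap, read 4.70 and 4.85 against 7.76 and 6.16, +2.19 ± 0.48 (limma adjusted p = 0.0409). For all 4 genes both arrays of one number lay apart from both of the other.

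Further members with wide number differences did not pass. They were Snord37 (-2.62 ± 1.01), Snord16a (-2.54 ± 0.60, limma adjusted p = 0.0516), Snora33 (-2.14 ± 0.54, limma adjusted p = 0.0621), Snord57 (-1.99 ± 0.49), Snora75 (+1.74 ± 0.53) and Snora52 (-1.55 ± 0.40). By size, 20 members were at -1 or lower (8.82% over all) and 6 at +1 or higher (3.4% over all). At an unadjusted p under 0.05, 15 were lower (12% over all) and 7 higher (5.97% over all). Of the 56 members 41 were lower in number 2, 15 of 23 Snora and 26 of 33 Snord. The medians were -0.36 for Snora and -0.91 for Snord, against +0.08 for all annotated probe sets. With 1 probe set a gene they were -0.36 and -0.63, and Snora minus Snord was 0.27 in place of 0.55. Without wild type 1 the Snora median was +0.055, and without knockout 2 the Snord median was -0.23; without wild type 2 the Snord median was -1.36, and without knockout 1 the Snora median was -0.67. Both arrays numbered 2 lay below both numbered 1 for 17 members, 4 Snora and 13 Snord (22.2% over all), and above for 10, 6 Snora and 4 Snord (26.2% over all). Within wild type the number medians were -0.83 for Snora and -0.35 for Snord. Within the knockout they were +0.30 and -1.34, so that the order of the class medians turned between genotypes. The order of the means over members did not turn, with -0.27 and -0.42 within wild type and -0.39 and -1.24 within the knockout. The calls by number were fragile: 0 members passed after centring, after repeated quantile normalisation, over all rows of the table, without wild type 2 or without knockout 2, while 17 passed without wild type 1 (3.03% over all) and 22 without knockout 1 (5.03% over all). The sign of these 4 genes was the same in every setting run.

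**Figure D5:**
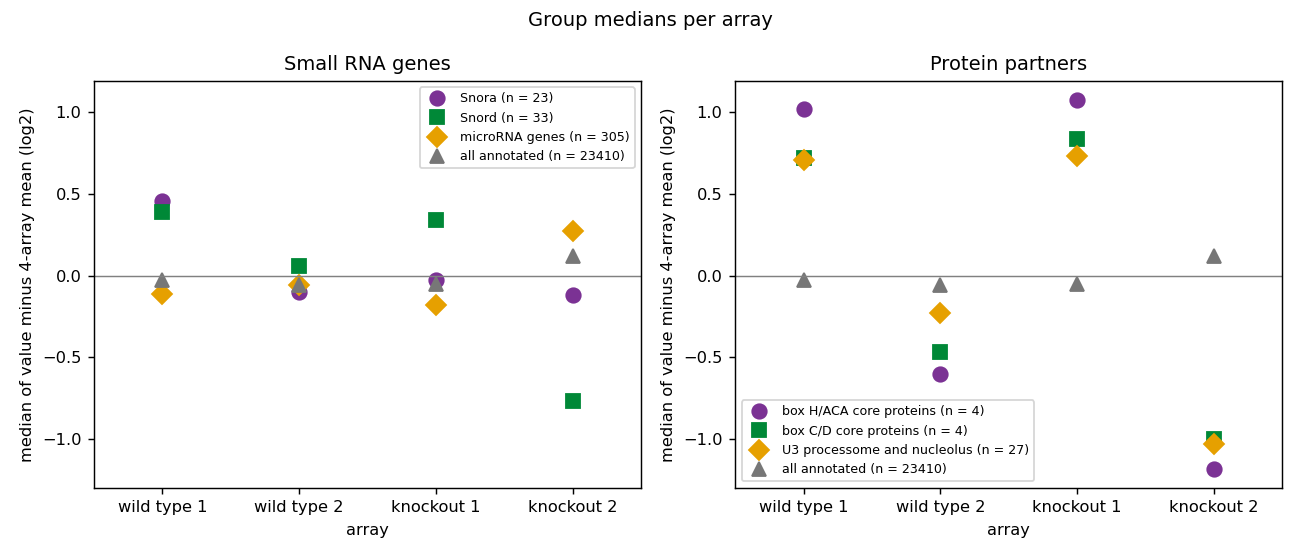
Median over each group of the log2 value minus its 4-array mean (y axis) on each array (x axis); left, Snora, Snord, microRNA genes and all annotated probe sets; right, box H/ACA core proteins, box C/D core proteins and nucleolar genes. Snord stands lowest on knockout 2 (-0.77), and the protein groups stand above 0 on the arrays numbered 1 and below 0 on those numbered 2.

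The protein partners of snoRNAs were read from lists of genes by role. Their messenger RNAs differed more by title number than by genotype. All 4 H/ACA core genes were lower in number 2, with a median of -2.10, and 3 passed limma (2.15% over all): Gar1 (-2.40 ± 0.32), Nhp2 (-2.81 ± 0.45) and Nop10 (-1.79 ± 0.36), at limma adjusted p of 0.0137 to 0.0339; Dkc1 was at -1.25 ± 0.33. Gar1 read 9.43 and 9.41 on wild type 1 and knockout 1 and 6.89 and 7.13 on wild type 2 and knockout 2. All 4 C/D core genes were lower too, with a median of -1.47, and Fbl (-2.24 ± 0.35) and Nop58 (-1.59 ± 0.34) passed (limma adjusted p of 0.0206 and 0.0386), while Nop56 (-1.34) and Snu13 (-1.27) did not. Fbl, the methyltransferase itself, read 10.89 and 10.95 against 9.03 and 8.33. By genotype the medians were -0.28 and -0.27, and 0 genes of either list passed.

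Of 14 assembly factors 4 passed as lower in number 2, among them the helicases Ruvbl1 (-1.94) and Ruvbl2 (-2.05), and of 14 trimming genes 2 did, the deadenylase gene Parn (-1.86) and the cap-binding gene Ncbp2 (-1.73). Of 27 genes of the U3 processome and nucleolus 10 passed as lower, with Utp15 (-2.33) and Wdr75 (-2.26) the lowest of them, and 2 of 14 RNA polymerase I genes did, Twistnb (-2.32) and Polr1a (-1.71). In these lists 0 genes passed as higher. Over all annotated probe sets 2.15% passed as lower and 0.94% as higher. Over all list genes 24 passed by number; 0 did after centring, after repeated quantile normalisation, without wild type 2 or without knockout 2. All 8 core genes were lower in number 2 in every setting, by at least 0.98 on the log2 scale. Marker lists of blood cells also differed by number. Neutrophil markers were lower in number 2, with a median of -0.71 over 18 genes. Medians were above 0 for erythroblast (+0.77 over 14), monocyte and macrophage (+0.96 over 13), megakaryocyte and platelet (+1.03 over 6), B cell (+0.45 over 12) and T and NK cell markers (+0.35 over 11), and -0.12 over 11 for mast cell, basophil and eosinophil markers. Among the markers 4 of monocytes and macrophages, 1 of erythroblasts and 1 of megakaryocytes and platelets passed as higher, and 0 as lower. The part of these cell types in the number differences was not tested.

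By genotype 0 genes of these lists passed. The assembly factor gene Shq1 (+1.24 ± 0.41), the RNA surveillance gene Zcchc8 (-0.89 ± 0.35), the polymerase subunit gene Polr1b (-1.16 ± 0.49) and the host gene Snhg15 (+1.23 ± 0.50) were among those without overlap. Of 27 listed noncoding host genes 9 were measured, and all 9 had higher means in the knockout, with a median of +0.34. Over all annotated probe sets 13211 of 23410 were higher, with a median of +0.06. Of the 9 only Gas5 has a span that holds a member, Snord47, and Gas5 read between 11.23 and 11.59 on all arrays. Snord47 read 7.91, 8.33, 8.57 and 6.33. Of the protein-coding host list 46 genes were measured, with a median of -0.12.

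Small RNA genes with other symbols, microRNA genes aside, were measured by 17 probe sets, for Cajal body, spliceosomal and further small RNAs. They fall outside the symbol rule for members, which does not place each of them outside the box C/D and box H/ACA classes. Rnu3a, the gene of a box C/D RNA that carries another symbol, read 8.71, 6.95, 7.97 and 9.41, with knockout 2 highest, the array on which the Snord median was lowest. Rpph1, the RNA of ribonuclease P, had the lowest difference of this group, at 12.21, 12.25, 9.87 and 10.74 (-1.92 ± 0.42), and its genotypes did not overlap. Vaultrc5 was also lower without overlap, at 6.57, 5.26, 3.56 and 5.06 (-1.60 ± 0.64). Of the 17 probe sets 2 were lower and 2 higher without overlap (9.42% and 15.6% over all annotated probe sets).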

How the data were processed

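Per the labels' protocols, 100 ng of total RNA from each of 4 samples was labelled for Affymetrix whole-transcript arrays. The authors deposited 1 table of log2 values, 35511 probe sets by 4 samples, which were used without further normalisation. The tools named per the submitters' processing notes were R 3.0.2, RMA and limma, without roles, and no genome build is named there. RMA compresses differences of dim and very bright probe sets.

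Symbols came from the platform annotation (23410 probe sets). Limma 3.58.1 in R 4.3.3 (lmFit, eBayes, no filter) compared knockout with wild type, and title number 2 with 1, with Benjamini-Hochberg adjustment over all annotated probe sets, after tests on simulated data. SE is limma's moderated standard error. No separate animals are named, so each p-value rests on a spread that may be technical. Groups and lists were described by counts and medians. Lists used the brightest probe set of each gene. Hosts were genes whose span in the RefSeq table contains the snoRNA; that table gives no strand. Fixed lists covered snoRNP core proteins, assembly, trimming, nucleolus, RNA polymerase I, host genes and blood cell markers. Named members of each class were the 6 lowest and 6 highest genotype differences without overlap, the 5 widest number differences and the 3 brightest, plus Snora20 and Snord53; others needed for a comparison (host partners, precursor-processing snoRNAs and members with 1 array standing apart), and list genes named by number, were chosen after their values were seen. Members and lists were chosen with earlier results of these data known. Alternatives were left-out arrays, centring, quantile normalisation run again, brighter probe sets only, other moderation, array weights, all rows, and 1 probe set a gene. snoRNA sequences were not used here. The number of arrays limits the precision.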

Additional observations from a re-analysis of the deposited data

How the results depend on the processing

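Members past limma by genotype (0) were 12 with the title number as a replicate block (1.17% of all annotated probe sets), 1 with trended and robust moderation (0.0342%), 5 at an unadjusted p under 0.05 and 0 to 3 with 1 array left out; the 3 were Snora20, Snora23 and Snora31, without wild type replicate 2 (0.265%). The numbers may not pair the arrays, since no label says what they mark and only 2 pairs exist. Members past limma by number (6) were 24 with the genotype as a further term (replicate block; 9.06% of all), 0 after centring, repeated quantile normalisation or over all rows, 3 among brighter probe sets (1.55%), 22 with trended and robust moderation (9.35%), 1 with array weights (0.0427%) and 0 to 22 with 1 array left out (0% to 5.03%). List genes past limma by number (24) were 45 with the block, 0 after centring or quantile normalisation and 0 to 24 with 1 array left out.

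With 1 array left out, the median genotype difference ran from -0.31 to -0.042 for Snora and from -0.91 to -0.010 for Snord, and the median number difference from -0.67 to +0.055 and from -1.36 to -0.23. Snora minus Snord ran from -0.11 to +0.65 by genotype and from -0.037 to +1.06 by number; by genotype it was -0.07 for means. Members without overlap were 7 to 12 (Snora lower), 4 to 8 (Snora higher), 9 to 21 (Snord lower) and 7 to 10 (Snord higher), where 21.8% to 31.6% (lower) and 29.9% to 46.6% (higher) of all annotated probe sets did not overlap; 1 array against 2 separates more easily. Snora higher (2) was 1 after centring, 1 after quantile normalisation and 0 among brighter probe sets; Snord lower (7) was 4 among brighter probe sets and Snord higher (4) was 0 after centring. Pairs of a snoRNA and host of the same sign (16 of 26) were 12 to 19 with 1 array left out. The cause was not tested. The median size of the difference between wild type arrays stayed between 1.02 and 1.24 in 4 settings chosen after seeing the data. Leaving out the imprinted C/D families changed nothing, as no member belongs to them.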
